A study of Danio rerio with 6 samples.

Results

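The genes described here belong to a set of 10 interferon-responsive genes of the zebrafish (Danio rerio). The 8 that are described one by one are helz2, stat2, irf1b, irf7, irf9, isg15, rsad2 and mxa. They were chosen by name, out of the 28531 distinct names in the count table. All 10 names were found, on 11 rows, because irf1b stands on 2 rows. Counts over the set cover all 11 rows. The choice was made with results of these libraries known, in particular that helz2 was higher after treatment in each pair of libraries. Fitted differences, intervals and calls of these genes are therefore a description and support nothing, and tests are read only for genes outside the set. Levels are counts scaled to CPM, the usual depth-normalised unit, using the library size after TMM scaling, and they are not corrected for gene length, so a level is compared between libraries and not between genes.

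The RNA came from caudal fin regenerates of the shha:GFP line, whose green fluorescence reports the Hedgehog ligand gene shha. Fish at 4 days after fin amputation were injected into the body cavity with 40 mg/kg of BMS-833923 in buffer (the BMS group) or with the buffer alone (the vehicle group), and fins were taken 5 hours later. The compound blocks Smoothened, a membrane protein on which Hedgehog signalling depends. The buffer, which both groups received, held PEG-400, propylene glycol and Tween-80. Both groups are of the shha:GFP line, and no age of the fish was given. Tissue proximal to the fluorescent domains was discarded. Each group has 3 libraries, numbered 2, 3 and 4, and each library is a pool of 4 fin regenerates. The compound number in the labels of BMS replicates 3 and 4 has a different last digit from the one given for replicate 2 and in the design text; all 3 were treated here as BMS-833923. Whether pools came from separate experiments is not stated. With group as the only term, p-values measure the spread between pools of a group, which may be technical. Where a fit treats libraries of the same number as pairs, p-values measure the spread left once differences between the numbers are taken out, which may be technical too.

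Total counts ran from 16978747 to 22659275 per library. One library was unlike the other 5, BMS replicate 2, whose TMM factor was 0.78 (0.95 to 1.12 elsewhere) and whose share of ribosomal protein reads was 8.30% (3.76% to 6.27% elsewhere). Values without it, from the fit with group only, are given beside some of the results that it moves. A result without such a value may have moved too. Libraries that share a number shared their deviations from the group means, so the fits with a replicate block treat the numbers as pairs. As a check of the treatment, the Hedgehog target gene hhip was at 1.97, 3.99 and 4.16 CPM in BMS replicates 2, 3 and 4, and at 15.1, 13.1 and 9.4 CPM in vehicle replicates 2, 3 and 4, so that every BMS library was below every vehicle library. The Hedgehog target genes gli1 and ptch1 were also lower in BMS in 3 of 3 pairs. Their log2 fold changes with the block were -0.91 and -0.87. The groups did not overlap in gli1, but in ptch1 BMS replicate 3 (25.5 CPM) was above vehicle replicate 4 (22.6 CPM). Epidermis, mesenchyme and osteoblast markers, which define the tissue of the distal regenerate, were detected in all 6 libraries, at levels that differed between the replicate numbers. The fin mesenchyme markers summed to 11636, 5838 and 2851 CPM in BMS replicates 2, 3 and 4, and to 10905, 8267 and 3666 CPM in vehicle replicates 2, 3 and 4. The basal epidermis markers summed to 12309, 6428 and 9524 CPM in BMS, and to 7463, 6630 and 9105 CPM in vehicle. The part of these differences in the results was not tested.

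Interferons are secreted proteins by which a cell that senses viral nucleic acid warns its neighbours. Their receptors activate Janus kinases, which phosphorylate transcription factors of the STAT family. Stat2 joins with another STAT and Irf9 into a complex that switches on interferon-stimulated genes, whose products block viral replication, present antigen or damp the signal again. Many of these genes are also transcribed at a low level without infection. The STAT and Irf members described here are parts of that signal chain as well as its targets, and isg15, rsad2, mxa and helz2 are targets.

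The gene helz2 encodes a large helicase that is interferon-inducible in mammals and is also known there as a coactivator of the nuclear receptor PPAR. It was at 47.7, 57.0 and 27.0 CPM in BMS replicates 2, 3 and 4, and at 27.6, 29.7 and 12.6 CPM in vehicle replicates 2, 3 and 4. Every BMS library was higher than the vehicle library of its number, but the groups overlapped, because BMS replicate 4 lay just below vehicle replicates 2 and 3. The ratio was 1.73 in pair 2, 1.92 in pair 3 and 2.15 in pair 4. Both libraries of number 4 were the lowest of their group. These are the values by which helz2 was chosen. In bulk tissue, more cells that express a gene and more RNA per cell cannot be told apart.

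The edgeR quasi-likelihood fit gave helz2 a log2 fold change of 0.91 ± 0.40 (SE, n = 3 libraries a group) with group as the only term, and of 0.94 ± 0.16 with the replicate block. The 95% interval was 0.58 to 1.31 with the block. Leaving out 1 library gave values between 0.61 (without vehicle replicate 4) and 1.17 (without BMS replicate 4), and leaving out both libraries of number 2, with the block, gave 1.04. The 3 pair differences were close to each other, with an SD of 0.16 log2 units.

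**Figure D1:**
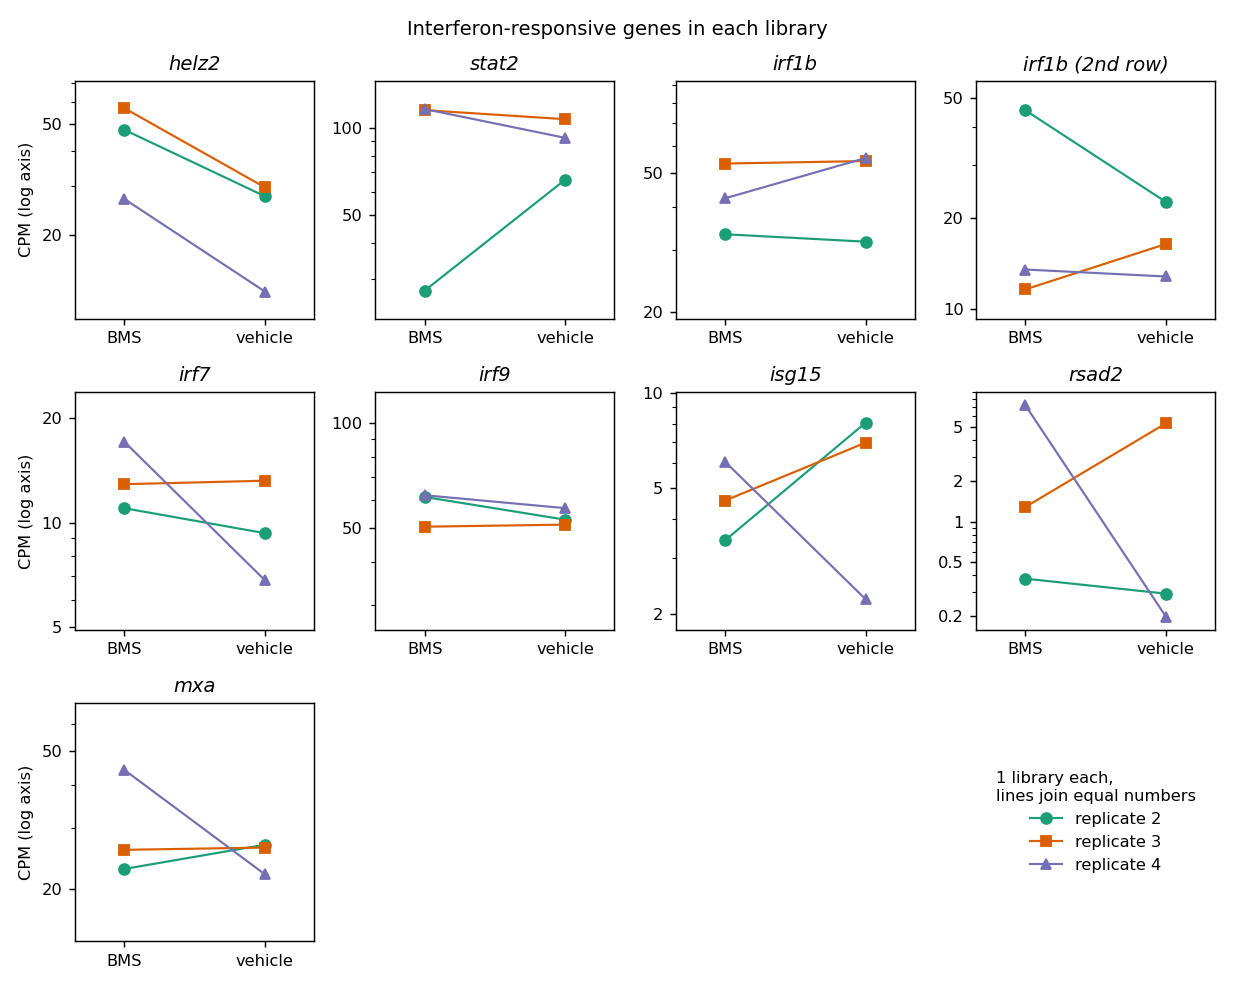
Level of 9 rows, those of the 8 genes described singly, in CPM (log axis, each panel spanning its own range), with BMS libraries on the left and vehicle libraries on the right, 1 point a library and a line joining libraries of the same number. In helz2 the 3 lines fall side by side from BMS to vehicle, while in isg15, rsad2 and mxa the highest BMS library is replicate 4 and the lines cross.

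Which zebrafish gene the row named helz2 stands for cannot be settled from the names. The RefSeq table used here (GRCz12tu, for names only) has 3 genes named helz2a, helz2b and helz2c. The count table has 0 rows under these names.

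Stat2 carries the signal of type I interferon from the receptor to the nucleus. The gene stat2 was at 27.3, 115 and 116 CPM in BMS replicates 2, 3 and 4, and at 66.1, 107 and 92.2 CPM in vehicle replicates 2, 3 and 4. The BMS replicate 2 library was the lowest of the 6 libraries, and vehicle replicate 2 was the lowest vehicle library. The fitted value was -0.26 ± 0.29 with the block and -0.04 ± 0.48 without it, and it was 0.40 without BMS replicate 2 (group only).

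Irf9 is the DNA-binding partner of Stat2. The gene irf9 was at 61.4, 50.4 and 62.1 CPM in BMS replicates 2, 3 and 4, and at 52.8, 51.1 and 57.0 CPM in vehicle replicates 2, 3 and 4. It was the steadiest of the 11 rows: its SD within groups was 0.13 log2 units, smaller than in all but 3.06% of the rows tested. Its fitted value was 0.11 ± 0.15 with the block (interval -0.23 to 0.45), and with total-count scaling it was -0.01.

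Irf7 amplifies interferon production in mammals and fish once the first interferon has been sensed. The gene irf7 was at 11, 12.9 and 17.1 CPM in BMS replicates 2, 3 and 4, and at 9.32, 13.2 and 6.82 CPM in vehicle replicates 2, 3 and 4. The highest library was BMS replicate 4 and the lowest vehicle replicate 4, and pair 4 differed by 1.33 log2 units, against 0.25 in pair 2 and -0.03 in pair 3. The fitted value was 0.51 ± 0.27 with the block (interval -0.10 to 1.13), and 0.11 without both libraries of number 4. Besides helz2, which was chosen by its rise in each pair, irf7 was the only member whose sign was the same in all 19 alternative settings. These settings reuse the same libraries.

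Irf1 drives genes of the response to interferon gamma. The irf1b row of higher count was at 33.4, 53.4 and 42.4 CPM in BMS replicates 2, 3 and 4, and at 31.8, 54.3 and 55.4 CPM in vehicle replicates 2, 3 and 4. Its value with the block was -0.12 ± 0.16, and with group only it was 0.03 without BMS replicate 2 and -0.13 with all 6 libraries. The other irf1b row was at 45.5, 11.6 and 13.5 CPM in BMS, and at 22.6, 16.4 and 12.8 CPM in vehicle. The rows did not follow each other: in the second one BMS replicate 2 was the highest library, and in the first it was the second lowest. The value of the second row was 0.20 ± 0.27 with the block. With group only it was 0.44 with all 6 libraries and turned to -0.44 without BMS replicate 2. The files do not say how the rows that share this name differ.

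The antiviral members isg15 and rsad2 varied more between pools of the same group than mxa did. Isg15 is a ubiquitin-like protein that is attached to other proteins during infection. Its gene was at 3.41, 4.56 and 6.06 CPM in BMS replicates 2, 3 and 4, and at 8.05, 6.96 and 2.22 CPM in vehicle replicates 2, 3 and 4. The order of the libraries was opposite in the groups, and the pair differences were -1.24, -0.61 and 1.45 log2 units. The fitted value with the block was -0.15 ± 0.46, with an interval of -1.21 to 0.91. It was 0.39 without both libraries of number 2 and -0.91 without both of number 4.

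The gene rsad2 encodes viperin, an enzyme that makes a modified nucleotide which stops viral RNA synthesis. Its counts were 5, 27 and 179 reads in BMS replicates 2, 3 and 4, and 6, 126 and 5 reads in vehicle replicates 2, 3 and 4. In CPM these are 0.378, 1.28 and 7.23 in BMS, and 0.293, 5.32 and 0.198 in vehicle. The high libraries were BMS replicate 4 and vehicle replicate 3, and the highest library of a group was 19.1 times the lowest in BMS and 26.8 times in vehicle. Only 1 of the 18541 rows tested had a larger SD within groups than rsad2 (2.17 log2 units). This spread uses no difference between treatments. The fitted value, 0.84 ± 1.65 with the block, has an interval of -3.48 to 5.16, and with group only it was -1.16 without BMS replicate 4 and 3.60 without vehicle replicate 3, against 0.64 with all 6 libraries.

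Mxa is a dynamin-like GTPase that traps viral particles. The gene mxa was at 22.9, 26 and 44.2 CPM in BMS replicates 2, 3 and 4, and at 26.9, 26.4 and 22.1 CPM in vehicle replicates 2, 3 and 4. The BMS replicate 4 library was the highest and the other 5 lay close together. The fitted value was 0.25 ± 0.24 with the block, and it was -0.13 without both libraries of number 4. With group only it was 0.51 without BMS replicate 2, -0.04 without BMS replicate 4 and 0.31 with all 6 libraries. The zebrafish has several mx genes, and reads common to them may be split among the rows.

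**Figure D2:**
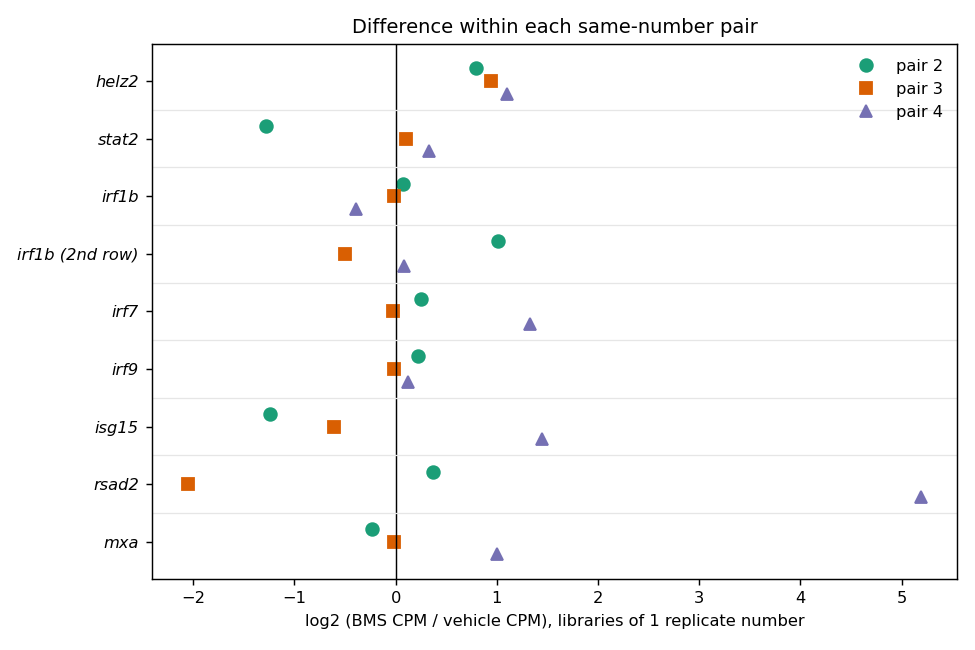
Log2 ratio of BMS CPM to vehicle CPM for the 9 rows of the 8 genes described singly, within the pairs of replicate number 2, 3 and 4. The 3 values of helz2 lie between 0.79 and 1.1, and for the other rows at least 1 pair lies on each side of 0, with pair 4 of rsad2 at 5.19.

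Over the 11 rows, 1 was higher in BMS in 3 of 3 pairs, helz2, by which it was chosen, and 0 were lower in 3 of 3 pairs. Of all rows tested, 14.1% were higher in 3 of 3 pairs and 17.5% lower. In 0 of the 11 rows were the groups free of overlap, against 2.16% of all rows with every BMS library above every vehicle library and 1.76% with every one below. By edgeR's quasi-likelihood test 0 of 11 rows passed an adjusted p of 0.05, without or with the block, where 0.00% of all rows passed. At an unadjusted p under 0.05 the count was 1 of 11, helz2, in either fit, against 1.07% of all rows without the block and 7.05% with it. DESeq2 without the block called 0 of 11, against 0.00539% of all rows. DESeq2 with the block called 1 of 11, again helz2, against 0.482% of the rows with an adjusted p. The edgeR likelihood ratio test with the block also called helz2 alone, against 0.561% of all rows, and limma-voom with the block called 0, against 0.00%. The calls of helz2 rest on the values by which it was chosen, so nothing is read from them or from their shares of all rows. The median log2 fold change was 0.11 over the 11 rows and 0.05 over the 10 without helz2, beside -0.02 over all rows, each with the block.

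**Figure D3:**
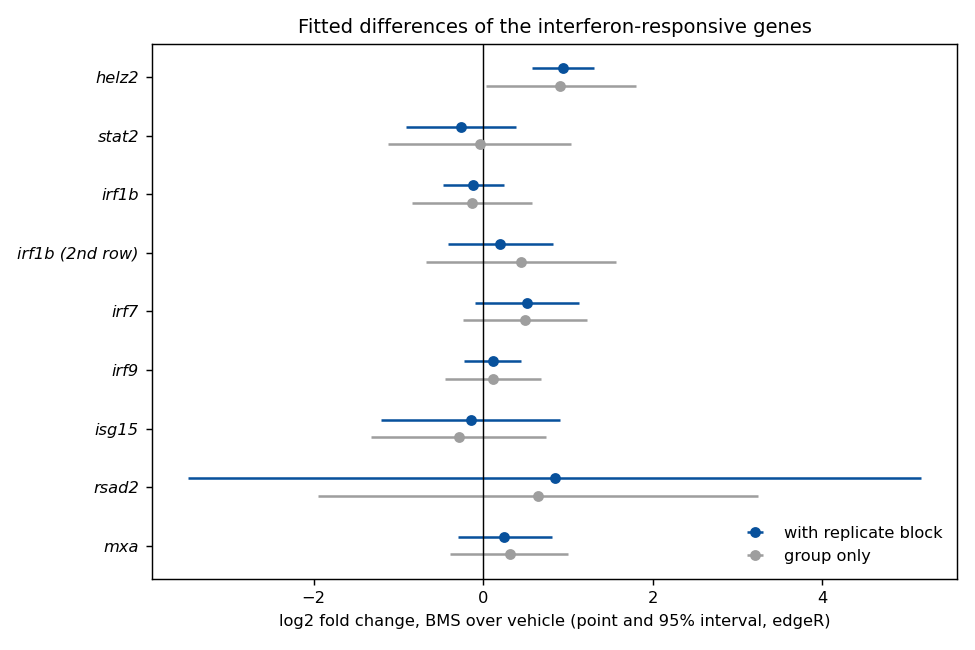
Log2 fold change of BMS over vehicle for the 9 rows of the 8 genes described singly, by edgeR's quasi-likelihood fit, as points with 95% intervals, with the replicate block (blue) and with group only (grey). The interval of helz2 with the block runs from 0.58 to 1.31, the group-only interval of helz2 runs from 0.03 to 1.80, and the intervals of the other 8 rows hold 0 in both fits.

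Other genes of the interferon system, and helz2 relatives and PPAR partners on 1 of the lists, were read from 8 lists of 244 names. The lists were chosen by function, with earlier results of these data known. Of the 244 names, 205 were found and 178 passed the filter on low counts. None of the 178 was called: edgeR's quasi-likelihood test called 0 without the block and 0 with it, and DESeq2 with the block called 0 of the 158 with an adjusted p. By edgeR's test with the block, the treatment check hhip did not pass either (adjusted p = 0.342), nor did gli1 (0.454) and ptch1 (0.477). DESeq2 with the block called hhip (adjusted p = 0.000112) and gli1 (0.0245), and not ptch1 (0.0542). A count of 0 by edgeR therefore does not show that the list genes were unchanged. At an unadjusted p under 0.05, the edgeR fit with the block held 5 higher and 3 lower genes, 4.49% of the 178, against 7.05% of all rows. Without the block it held 2 genes (1.12%), against 1.07% of all rows. The median log2 fold change over the 178 was 0.01 with the block.

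Among the receptors and kinases, which pass the signal on, 0 of 10 receptor genes and 0 of 10 Janus kinase or other STAT genes passed, by edgeR or DESeq2 and in either direction, and 0 had an unadjusted p under 0.05. The listed receptor names crfb5 and crfb14 had no row and are not among the 10. The kinase gene of highest mean CPM, jak1, which serves nearly all interferon receptors, was at 196, 304 and 216 CPM in BMS replicates 2, 3 and 4, and at 260, 281 and 216 CPM in vehicle replicates 2, 3 and 4. Its log2 fold change was -0.10 ± 0.18 with the block, and that of stat6, which serves interleukin 4 signalling, was -0.31 ± 0.22. With group only, leaving out BMS replicate 2 gave 0.05 for jak1 and turned stat6 to 0.21, against -0.08 and -0.16 with all 6 libraries. The receptor subunit genes crfb6 and il10rb were at -0.09 ± 0.18 and 0.28 ± 0.22 with the block. With group only they were at 0.27 and -0.12 without BMS replicate 2, against -0.03 and 0.40 with all 6 libraries. In pair 2, which holds the library that stands apart, 2 of the 10 kinase and STAT genes were higher in BMS, against 8 of 10 in pair 3 and 4 of 10 in pair 4. For the 10 receptor genes it was 2 in pair 2, 10 in pair 3 and 5 in pair 4. Of all rows, 50.0%, 49.0% and 43.6% were higher in BMS in pairs 2, 3 and 4.

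The listed interferon names ifng1 and ifnu had no row, so their levels are not known here. Of the interferon genes with a row, only ifnphi1 passed the filter on low counts. It had 2, 15 and 25 reads in BMS replicates 2, 3 and 4, and 8, 26 and 44 reads in vehicle replicates 2, 3 and 4. Its pair differences were -1.37, -0.62 and -0.79 log2 units, all below 0, and it did not pass (edgeR with the block -0.80 ± 0.37, adjusted p = 0.687). With group only it was -0.31 without BMS replicate 2, against -0.72 with all 6 libraries. The summed count over all 6 libraries was 5 for ifnphi2, 14 for ifnphi3 and 1 for ifng1-1, and it was 0 for ifnphi4. The ifng1-1 row was matched by synonym to the name ifng1r, not to ifng1. The limit that a count of 0 sets (3 counts of the TMM-scaled library size, counting error only) was 0.227 CPM in BMS replicate 2 and between 0.119 and 0.146 CPM in the other 5 libraries.

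The list of sensors of viral nucleic acid and their adaptors held 24 tested genes, of which 0 passed or had an unadjusted p under 0.05. The 24 include tlr5a and tlr5b, which are not nucleic acid sensors. The RNA sensor gene ifih1 was at 0.06 ± 0.17, its regulator dhx58 at -0.23 ± 0.28 and the adaptor gene mavs at -0.05 ± 0.17, each as a log2 fold change with the block and each chosen after the values were seen. Without BMS replicate 2 (group only), dhx58 was at 0.28 and mavs at 0.13, against -0.13 and -0.04 with all 6 libraries. The 2 genes of highest mean CPM on the list, trim25 and dhx9, were at -0.09 ± 0.15 and -0.21 ± 0.15. Without BMS replicate 2 (group only), trim25 was at 0.09 and dhx9 at -0.38, against -0.08 and -0.19 with all 6 libraries. The list of other Irf genes (9 tested, with irf2bp1, the gene of an Irf2-binding protein, counted among them) had 0 called and 0 at an unadjusted p under 0.05. The negative regulator gene of highest mean CPM, socs3a, was at 241, 220 and 465 CPM in BMS replicates 2, 3 and 4, and at 224, 498 and 394 CPM in vehicle replicates 2, 3 and 4, with a log2 fold change of -0.27 ± 0.28. With group only, socs3a was at -0.08 without BMS replicate 2 and at -0.27 with all 6 libraries.

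Of the 8 genes with an unadjusted p under 0.05 in the edgeR fit with the block, none of which passed after adjustment, ido1 had the smallest p. It encodes a tryptophan-degrading enzyme that interferon gamma induces in mammals. It was at 1.89, 2 and 2.18 CPM in BMS replicates 2, 3 and 4, and at 3.51, 3.84 and 4.88 CPM in vehicle replicates 2, 3 and 4. Every BMS library was below every vehicle library, as in 1.12% of the 178 list genes and 1.76% of all rows. The log2 fold change was -1.0 ± 0.24 (adjusted p = 0.543 by edgeR's quasi-likelihood test, lower in 3 of 3 pairs). Over the 178 list genes 14% were lower in 3 of 3 pairs, against 17.5% of all rows.

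The next was ciita, which encodes the master activator of MHC class II genes. It had 52, 176 and 466 reads in BMS replicates 2, 3 and 4, and 127, 336 and 682 reads in vehicle replicates 2, 3 and 4. In CPM each BMS library was lower than the vehicle library of its number (-0.66, -0.76 and -0.52 log2 units in pairs 2, 3 and 4), and the differences between pairs were larger than those within them. The log2 fold change was -0.64 ± 0.18 (adjusted p = 0.602 by the same test). The MHC class II chaperone genes cd74a and cd74b, whose transcription Ciita drives in mammals, are named for that link and not by the rule. They were on the same list, at log2 fold changes of 0.11 and 0.16 with the block, opposite in sign to ciita. Like ciita, they were not called. With group only, ciita was at -0.19 without BMS replicate 2 and at -0.60 with all 6 libraries, and ido1 was at -0.95 and -1.01. The third lower gene, ifit11, of a family of RNA-binding antiviral proteins, was at -0.48 ± 0.18, and with group only it was at -0.23 without BMS replicate 2 and -0.46 with all 6 libraries.

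The other 5 of the 8 were higher. They were the pro-apoptotic xaf1 (0.53 ± 0.19), the antiviral helicase gene znfx1 (0.41 ± 0.15), the cytokine signalling inhibitor cish (0.52 ± 0.20), phf11 (0.42 ± 0.17) and gig2j (0.68 ± 0.28). For these 5 the adjusted p was 0.680 (xaf1) or 0.687 (the others) by edgeR. The gene znfx1 was at 47.9, 81.8 and 39.1 CPM in BMS replicates 2, 3 and 4, and at 41.1, 56.4 and 28.5 CPM in vehicle replicates 2, 3 and 4. It was higher in BMS in 3 of 3 pairs, which follows largely from its choice by the fit with the block. Over the 178 list genes 15.7% were higher in 3 of 3 pairs, against 14.1% of all rows. With group only, leaving out BMS replicate 2 gave 0.36 for xaf1, against 0.56 with all 6 libraries, and 0.40 for gig2j, against 0.70. In xaf1 and cish, every BMS library was above every vehicle library. Both were picked by a small p in this same contrast. Such separation was found in 2.81% of the 178 list genes, against 2.16% of all rows. Of the genes on a list of helz2 relatives and PPAR partners, 0 of 13 passed or had an unadjusted p under 0.05. Its members of highest mean CPM were thrap3b (-0.10 ± 0.17) and the RNA helicase gene upf1 (-0.19 ± 0.15). Without BMS replicate 2 (group only), thrap3b was at -0.36 and upf1 at -0.30, against -0.05 and -0.17 with all 6 libraries.

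**Figure D4:**
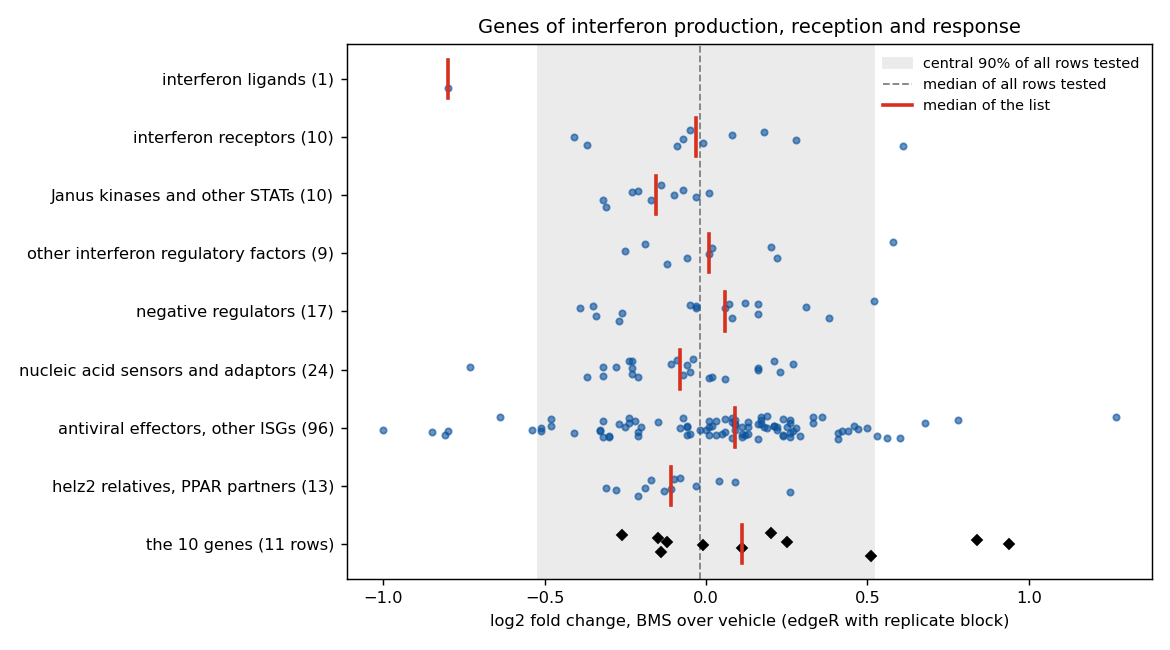
Log2 fold change of BMS over vehicle (edgeR with the replicate block) for each tested gene of the 8 lists and, at the bottom, the 11 rows of the 10 genes, with the number tested in brackets. Red bars are list medians, the grey band is the central 90% of all rows tested (-0.52 to 0.52), and the dashed line is the median of all rows.

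The largest list, of 96 tested antiviral effectors and other interferon-stimulated genes, had a median of 0.09 and 0 genes called by edgeR or DESeq2. Its genes split by pair. In pair 4, 73 of 96 (76.0%) were higher in BMS, against 43.6% of all rows. In pairs 2 and 3 the shares were 46.9% and 41.7%, against 50.0% and 49.0% of all rows. Of the 11 rows of the set, helz2 included, 9 were higher in BMS in pair 4, 6 in pair 2 and 4 in pair 3. Genes of 1 sample are not replicates, so these shares describe the libraries.

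The genes behind the split in pair 4 included other mx genes, here chosen after their values were seen. The gene mxb was at 1.59, 2.14 and 7.96 CPM in BMS replicates 2, 3 and 4, and at 1.17, 2.03 and 0.873 CPM in vehicle replicates 2, 3 and 4. The gene mxe was at 3.86, 4.04 and 14.9 CPM in BMS, and at 3.12, 7 and 3.45 CPM in vehicle. In both, BMS replicate 4 was far above the other 5 libraries, as for mxa. The gene mxc was level, at 48.3, 50.1 and 46.8 CPM in BMS, and at 54.6, 46.7 and 41.7 CPM in vehicle. The other mx genes tested had few reads. The gene mxd had 6, 12 and 22 reads in BMS and 16, 15 and 25 in vehicle (-0.32 ± 0.38 with the block), and mxf had 0, 12 and 11 reads in BMS and 23, 13 and 10 in vehicle. The lectin-binding protein gene lgals3bpb, also chosen after its values were seen, was at 12.9, 10.3 and 39.8 CPM in BMS, and at 13.7, 13.2 and 14.2 CPM in vehicle. Without both libraries of number 3, edgeR with the block called 3 genes of the lists, mxb, mxe and zgc:152791. It called 392 of all 18563 rows tested in that fit, and 0 with all 6 libraries, so nothing about the lists is read from these 3 calls.

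Immune cell markers also differed between the libraries. In pair 4, 6 of 6 neutrophil and 9 of 12 macrophage markers tested were higher in BMS, in pair 2 it was 6 of 6 and 8 of 12, and in pair 3 it was 5 of 6 and 7 of 12. Over all rows the shares were 43.6% in pair 4, 50.0% in pair 2 and 49.0% in pair 3. Of 10 neutrophil names listed, 8 were found and 6 were tested. The neutrophil list shares mmp13a with the osteoblast list, so it is not specific to neutrophils. Superficial epidermis markers, too, were higher in BMS for 8, 6 and 6 of 9 in pairs 2, 3 and 4. The summed level of the neutrophil markers was 556, 396 and 505 CPM in BMS replicates 2, 3 and 4, and 453, 339 and 366 CPM in vehicle replicates 2, 3 and 4. That of the macrophage markers was 453, 356 and 450 CPM in BMS, and 400, 345 and 390 CPM in vehicle. The pan-leukocyte markers (9 of 9 tested) summed to between 235 and 370 CPM in BMS and between 234 and 299 CPM in vehicle. In pairs 2, 3 and 4, 5, 6 and 6 of the 9 were higher in BMS. The lymphocyte markers (5 of 14 tested) summed to between 13.7 and 24.5 CPM in BMS and between 22.3 and 27.9 CPM in vehicle, and nkl.4 was at 0 in every library. Of the 5 tested, 1, 2 and 1 were higher in BMS in pairs 2, 3 and 4. Red blood cell markers (6 of 6 tested) were higher in BMS for 6 of 6 in pair 4 and for 1 of 6 in pairs 2 and 3. They summed to 69.3, 83.7 and 55 CPM in BMS replicates 2, 3 and 4, and to 213, 143 and 19.2 CPM in vehicle replicates 2, 3 and 4. No marker of these lists was called by edgeR or by DESeq2 with the block. Their part in the interferon-responsive values was not tested.

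**Figure D5:**
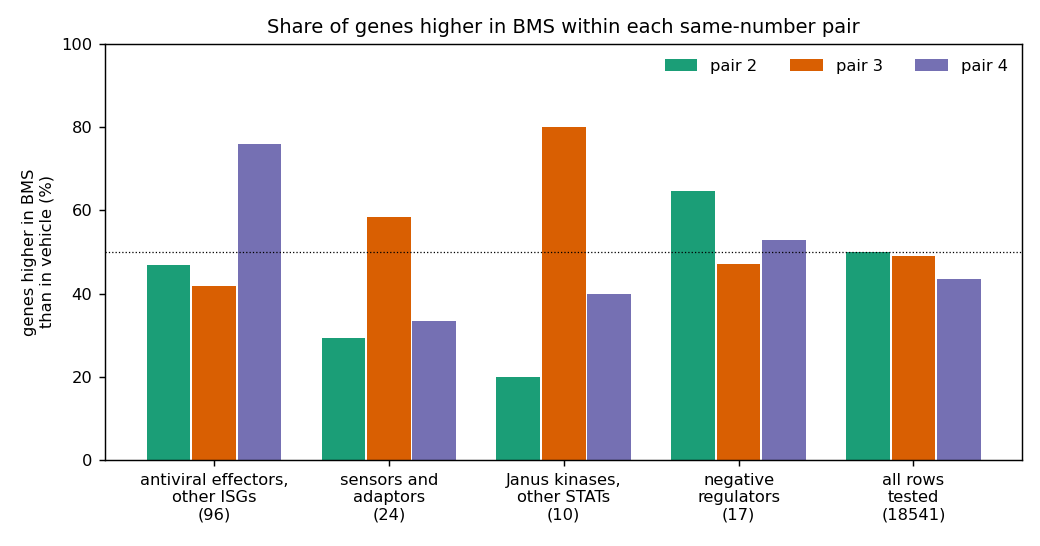
Share of tested genes with a higher CPM in BMS than in vehicle within each same-number pair, for 4 lists and for all rows, with the number of genes tested in brackets and a dotted line at 50%. The antiviral list stands at 76.0% in pair 4 and below 50% in pairs 2 and 3.

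The rows whose pattern over the 6 libraries was most like that of helz2 were si:dkey-177p2.18, def6b, dnah2, GSK3B (1 of many) and zgc:154006. Likeness was the root mean square difference between centred log2 CPM profiles, which was 0.16 for si:dkey-177p2.18, 0.20 for def6b, 0.22 for dnah2, 0.23 for GSK3B (1 of many) and 0.24 for zgc:154006. The same measure between helz2 and the other members was 0.57 for irf7, the nearest, and 1.82 for rsad2, the farthest. The first 5 rows are the nearest of all rows tested and irf7 only the nearest of the members, so rows outside the set were bound to be nearer. The helz2 profile also holds the difference by which helz2 was chosen. Nothing is read from the comparison. All of these 5 rows stayed at 6.70 CPM or below in every library.

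The mean profile of the 10 other rows was most like those of zgc:64002, si:dkey-20i20.3, si:ch211-281g13.4, CU570791.1 and zgc:171506, at differences of 0.09 to 0.12. One of these, si:ch211-281g13.4, is the row matched to herc56.2 on the antiviral list. It was at 1.21, 1.85 and 2.79 CPM in BMS replicates 2, 3 and 4, and at 1.51, 2.41 and 1.47 CPM in vehicle replicates 2, 3 and 4. The member nearest to that mean was mxa (0.20), and helz2 stood 0.71 from it. The second irf1b row (0.87) and rsad2 (1.51) were farther from it than helz2. The mean holds every member row except helz2, so the distance of helz2 is not on equal terms with the others.

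The profile of rsad2 was compared in the same way, a choice made after its values were seen. The nearest rows were jdp2b (0.80), ifit8 (0.84), si:ch211-281g13.5 (0.84), cmpk2 (0.97) and egr2a (0.99). The gene cmpk2, a nucleotide kinase gene that directly follows rsad2 in the GRCz12tu RefSeq gene order, was at 0.908, 1.28 and 3.72 CPM in BMS replicates 2, 3 and 4, and at 0.830, 2.53 and 0.556 CPM in vehicle replicates 2, 3 and 4. The gene ifit8 was at 0.227, 1.19 and 2.87 CPM in BMS, and at 0.586, 2.57 and 0.436 CPM in vehicle. Both genes had few reads. The counts of cmpk2 were 12, 27 and 92 in BMS and 17, 60 and 14 in vehicle. Those of ifit8 were 3, 25 and 71 in BMS and 12, 61 and 11 in vehicle. Genes of other pathways were among the nearest rows. The AP-1 family repressor gene jdp2b was at 78.5, 242 and 593 CPM in BMS, and at 153, 444 and 61.8 CPM in vehicle, and the early response gene egr2a was at 3.41, 11.7 and 18.4 CPM in BMS, and at 7.08, 14.9 and 2.18 CPM in vehicle. In all 5 rows and in rsad2, BMS replicate 4 was the highest library and vehicle replicate 3 the second highest. The 5 rows were picked for nearness to rsad2, so this shared order follows largely from the choice. Nothing is read from it.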

How the data were processed

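The deposited table holds raw counts for 31901 gene rows, made by the authors. Per the submitters' processing notes, the build was GRCz11 and the tools were TopHat2, Bowtie2, HTSeq and edgeR. Annotation and strand setting: not given in the sources used here, so overlapping and antisense genes cannot be told apart. A normalized table of the same rows was not used. Where a name recurs, the plain symbol denotes its row of highest count. Testing used the quasi-likelihood functions of edgeR 4.0.16 under R 4.3.3 (filterByExpr by group, TMM factors, robust dispersion) on the 6 libraries, two-sided, with Benjamini-Hochberg adjustment over 18541 rows and a threshold of 0.05. The fits were tested on simulated data. DESeq2 was version 1.42.0 and limma version 3.58.1. Libraries of a group differed beyond counting noise (chi-square over its degrees of freedom, 32.9 to 131.9).

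The replicate numbers were taken as pairs because deviations from the group means correlated, across rows, at 0.58, 0.55 and 0.62 between same-number libraries (limit 0.1). No label states the pairing. The 10 genes and the lists were chosen with earlier results of these data known. The lists were matched by symbol, case or RefSeq synonym (GRCz12tu, names only), and herc5.3 was left out because its synonym led to a transporter gene. Genes named from the lists are those with an unadjusted p under 0.05 with the block (at most 12) and the 2 of highest mean CPM in each list. Other list genes fall outside this rule, and some of them are said to be chosen after their values were seen. Likeness was ranked over log2 CPM with a prior count of 2. No sequence or gene length table of the files' build was used here. Some items are not reported here.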

Additional observations from a re-analysis of the deposited data

How the results depend on the processing

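The count of genes called (0 by edgeR with group only) was 1 by DESeq2, 72 by DESeq2 with the replicate block, 104 by the edgeR likelihood ratio test with the replicate block, and 9, 392 and 12 by edgeR with the replicate block without both libraries of number 2, 3 and 4. It was 0 by edgeR and limma-voom with the replicate block, with RLE or total-count scaling, without the filter on low counts, with rows of one name summed, and without each library in turn (0 to 0). The count of members called (0) was 1, helz2, in 3 of the 19 settings: DESeq2 with the replicate block, the likelihood ratio test with it, and edgeR without both libraries of number 3. The count of list genes called (0) was 3 in that last fit, beside 392 of all 18563 rows tested, and 0 in the others. The causes were not tested.

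Of 207 member values under alternatives, 204 moved by less than the SD within groups. That limit is wide where libraries of a group differ much. In rsad2 (SD 2.17 log2 units), a move from 0.64 to -1.40 without both libraries of number 4 lay within it. The sign held in every setting for 2 of the 11 rows, helz2 and irf7, and with 1 library left out it held for 3, these and irf9. All settings reuse the same 6 libraries. For helz2 the sign follows largely from its choice by a rise in each pair. For irf7 the value was 0.11 without both libraries of number 4, with the block. Total-count scaling with the block moved the median of all rows to -0.133. Counts of 5 or 6 reads in 3 libraries limit what rsad2 can show.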
